A study of Mus musculus with 20 samples.

Results

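The genes described here are 8 transcription regulators of lymphoid cells. They are the Ikaros family members Ikzf1 (Ikaros), Ikzf2 (Helios) and Ikzf3 (Aiolos), and the B-lymphoid factors Ebf1, Pou2af1, Spib, Bach2 and Bcl11a. They were chosen by name, and every probe set that the array annotation assigns to them alone was taken. This gave 25 of the 45101 probe sets on the array and 8 of the 18193 genes named there. The study measured 10 blood cell types of the mouse on 20 oligonucleotide arrays, 2 arrays per type. All cells came from C57Bl/6 mice labelled female and 12 to 14 weeks old, and each array held a pool of 4. The types, all sorted by flow cytometry, were long-term hematopoietic stem cells (LT-HSC, titled SPKSL), nucleated erythrocytes, granulocytes, monocytes, B cells and natural killer (NK) cells. T cells of both the CD4+ and the CD8+ lineage were taken naive and in a state labelled as activated with lipopolysaccharide. No mutation is given for any group. The labels do not say that the 2 pools of a type came from separate animals or sorts, so the p-values measure the spread between these arrays, which may be technical.

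Ikaros family proteins are zinc finger factors that bind DNA as dimers with each other and recruit chromatin remodelling and deacetylase complexes. Ikaros is known from early lymphoid commitment, Helios from stem cells and regulatory T cells, and Aiolos from maturing B cells. B cell identity is set by Ebf1, an early B cell factor that opens and activates B-lineage genes together with Pax5. Pou2af1 (OBF-1) is a coactivator of the octamer-binding Oct factors, Spib is an Ets factor related to PU.1, Bach2 is a repressor that holds back the plasma cell program, and Bcl11a is a zinc finger repressor needed for early B cells and known from the silencing of embryonic and fetal globin genes.

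Levels are log2 expression values as deposited, computed with GCRMA, and each pair of values below is array 1 and then array 2. A probe set was tested where at least 2 arrays exceeded a log2 value of 5, and 15 of the 25 member probe sets did so. Each gene was read from its brightest probe set, and all 8 of these passed, some of them only through the types where they are high. A gene was called where the adjusted p of limma, with Benjamini-Hochberg adjustment over all 18726 tested probe sets, was under 0.05 and the log2 difference was at least 1 in size, a fold of 2. Array medians lay between 3.08 and 3.27. Y-linked transcripts were above 5 on 6 of the 20 arrays, namely all 4 activated T cell arrays and the naive CD4 and naive CD8 arrays numbered 1, although the labels give female mice.

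The sorted cells carried the markers of their labels, with signs of other cells on some arrays. The summed level of 7 B cell markers was 16.89 and 16.82 on the log2 scale in B cells and 7.53 to 9.89 on the other 18 arrays, highest on granulocyte array 1, at 9.89, both naive CD8 arrays, at 9.86 and 9.74, and monocyte array 2, at 9.73. All 7 were above 5 in B cells, and 1 to 4 of them elsewhere. Granulocyte array 1 held 9.89 against 8.16 for array 2 and had more erythroid marker signal, 13.23 against 11.45. Both erythrocyte arrays held granulocyte markers at a summed level of 15.4 and 16.73, against 17.95 and 18.24 in granulocytes and 17.39 and 17.3 in monocytes. Siglech is a defining marker of plasmacytoid dendritic cells, which are known to express Spib and Bcl11a. It read 4.89 and 6.94 in naive CD4 T cells, 2.61 and 3.35 in naive CD8 T cells and 2.34 to 2.61 elsewhere. The summed level of 8 markers of these cells ran differently. It was 13.28 and 12.99 in B cells, 12.33 and 12.7 in naive CD8 and 11.85 and 12.35 in naive CD4 T cells. LT-HSC had 11.93 and 11.46, and the other arrays 8.05 to 10.82. Naive CD4 array 2 held granulocyte markers at 11.73, against 5.65 on array 1, and the naive CD8 arrays held NK cell markers at 13.25 and 11.45, against 16.69 and 16.64 in NK cells. Activated CD8 T cells held NK cell markers at 11.58 and 11.82, and activated CD4 T cells at 9.74 and 11.33. Of the 6 NK cell markers, 2 were above 5 on each naive CD8 array. In these bulk samples a smaller share of cells of a type and less RNA per cell cannot be told apart. The part of admixed cells in the results below was not tested. Results that rest on granulocyte array 1 or the erythrocyte arrays are given with and without them.

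**Figure D1:**
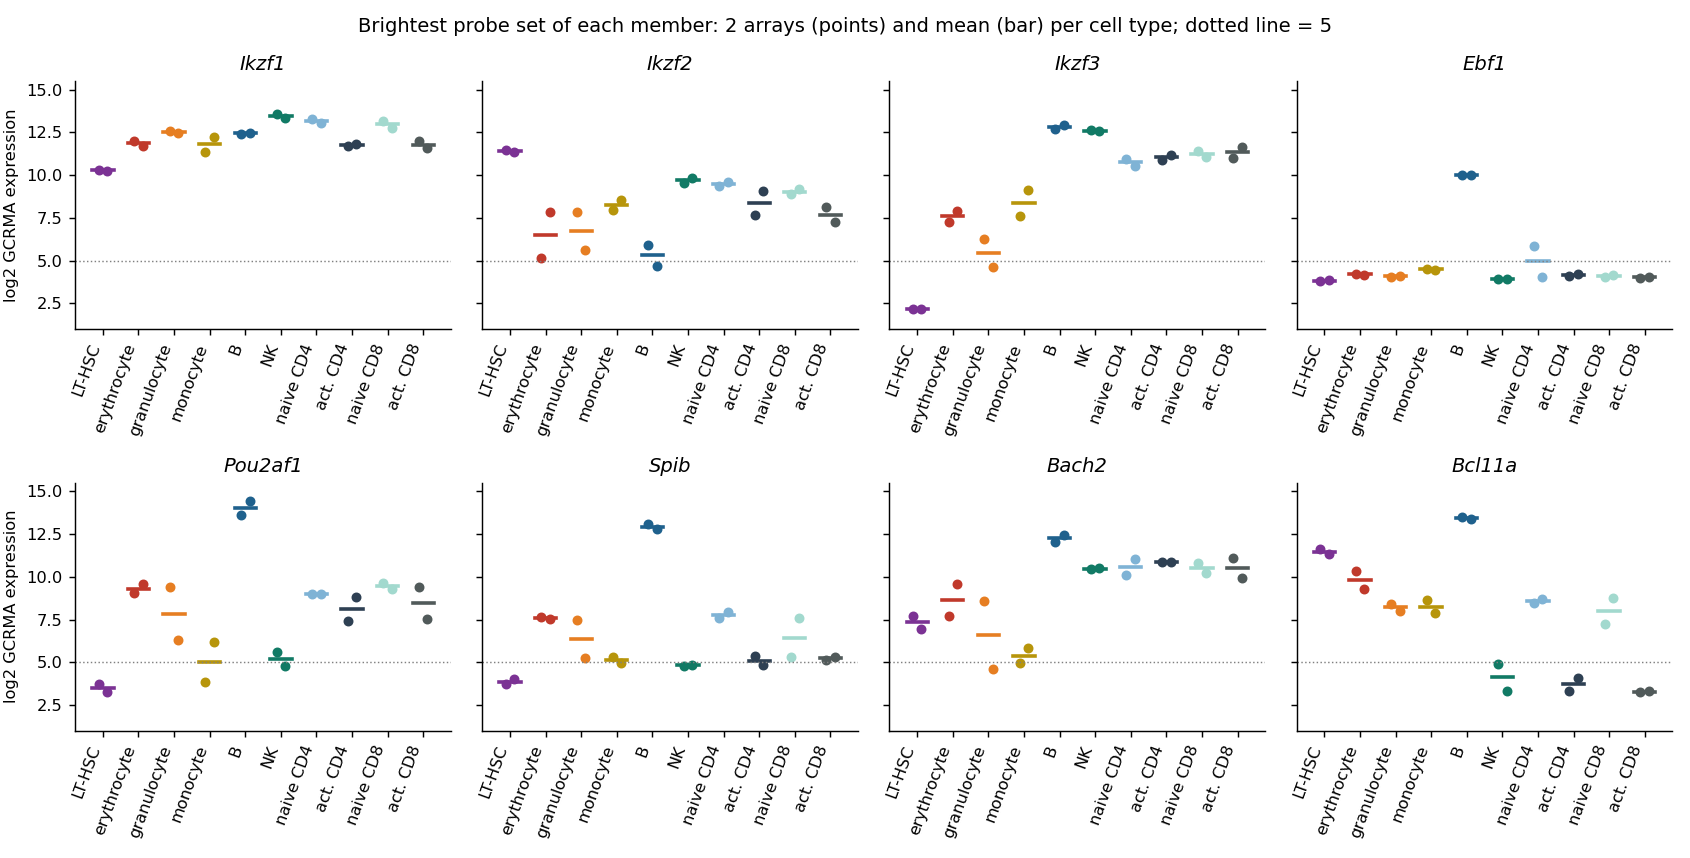
Log2 GCRMA expression (y axis) of the brightest probe set of each of the 8 genes in 10 cell types (x axis), with points for the 2 arrays and a bar for their mean. The dotted line marks the level of 5 used in the filter. Ebf1, Pou2af1, Spib, Bach2, Bcl11a and Ikzf3 have their highest mean in B cells, Ikzf2 in LT-HSC and Ikzf1 in NK cells.

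Ikzf1, the founding member of the family, was expressed in every type. Its level was 13.57 and 13.34 in NK cells, 13.3 and 13.07 in naive CD4 T cells, and 13.18 and 12.77 in naive CD8 T cells. Granulocytes, at 12.6 and 12.45, and B cells, at 12.42 and 12.48, stood next. Erythrocytes had 12.02 and 11.71, monocytes 11.36 and 12.23, activated CD8 T cells 11.98 and 11.59, and activated CD4 T cells 11.69 and 11.81. LT-HSC were lowest at 10.29 and 10.26, below all other 18 arrays, a separation given without its share over all tested genes. In the order of means only this last step differed between neighbours, with a log2 difference of 1.48 between activated CD4 T cells and LT-HSC (SE 0.281, adjusted p = 0.0006844 by limma). The range of its type means, 3.18, was larger than that of 38.8% of tested genes, so Ikzf1 varied less than the median gene, whose range was 3.78. Its other probe set lay between 2.2 and 2.29 on all arrays.

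Ikzf2, the Helios gene, followed a different order and was highest in LT-HSC. Its level there was 11.47 and 11.33, above every other array, again without a share over all tested genes. NK cells had 9.52 and 9.85, naive CD4 T cells 9.38 and 9.61, and naive CD8 T cells 8.9 and 9.16. Activated CD4 T cells had 7.66 and 9.08, monocytes 7.98 and 8.56, and activated CD8 T cells 8.13 and 7.26. Granulocytes (7.84 and 5.61) and erythrocytes (5.16 and 7.82) each had arrays more than 2 log2 units apart. B cells were lowest at 5.91 and 4.7. No neighbours in this order differed in the limma fit, but LT-HSC were above 7 of the 9 other types, and NK cells and naive CD4 T cells were the exceptions (adjusted p = 0.1275 and 0.08999 by limma). A second Ikzf2 probe set also had its highest mean in LT-HSC, at 5.92, but it exceeded 5 on those 2 arrays alone and so passed the filter only through them. The third stayed between 2.14 and 2.28.

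Ikzf3, the Aiolos gene, separated lymphoid from other cells on its brightest probe set. B cells had 12.7 and 12.95 and NK cells 12.61 and 12.58. The 8 T cell arrays ran from 10.53 to 11.67 with a median of 11.04. All 12 lymphoid arrays were above all 8 others. The share of all tested genes with such a separation is not given, so it describes this gene only. Monocytes had 7.6 and 9.1, erythrocytes 7.26 and 7.91, and granulocytes 6.25 and 4.64. In LT-HSC it was 2.16 and 2.19, the lowest of all types. The order broke at 3 steps, each with an adjusted p under 0.05 by limma. Naive CD4 T cells stood 2.4 above monocytes (SE 0.517, adjusted p = 0.001671), erythrocytes 2.14 above granulocytes (adjusted p = 0.00314) and granulocytes 3.27 above LT-HSC (adjusted p = 0.0001353). The Ikzf3 range of 10.65 was larger than that of 98.8% of tested genes. Its other probe sets failed the filter. The second ran from 2.91 to 4.87 and did not separate lymphoid from other arrays, and the third ran from 2.41 to 2.59. The 3 Ikaros genes thus ran in different orders, and over the 10 type means Pearson's r was 0.692 between Ikzf1 and Ikzf3, -0.196 between Ikzf1 and Ikzf2 and -0.306 between Ikzf2 and Ikzf3. These means share arrays and normalization, so the coefficients are descriptions.

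The other 2 genes of the family, Ikzf4 (Eos) and Ikzf5 (Pegasus), were read from a list fixed for comparison. Ikzf4 was 8.14 and 7.87 in LT-HSC and 9.53 and 10.11 in activated CD4 T cells, against 7.34 and 7.7 in naive CD4 T cells. Ikzf5 was highest in erythrocytes at 9.48 and 9.6. Against the mean of the 9 others, LT-HSC had higher levels of both, by 1.78 (Ikzf4, adjusted p = 0.000377 by limma) and 1.2 (Ikzf5, adjusted p = 0.00607). Ikzf2 was also higher there, while Ikzf1 and Ikzf3 were lower.

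Ebf1 was high in B cells and near the bottom of the scale elsewhere. Its brightest probe set read 10.01 and 10.0 in B cells and 3.79 to 5.85 on the other 18 arrays, with a median of 4.08. Of those 18 only naive CD4 array 1, at 5.85, exceeded 5, and the other naive CD4 array read 4.07. The other 3 that passed also had their highest means in B cells, at 11, 8.96 and 6.16. Outside B cells these 3 exceeded 5 on 1 erythrocyte array (5.44) and on granulocyte array 1 (5.01). Without the B cell arrays no Ebf1 probe set would have passed the filter, so their shared maximum in B cells is not read as support. The fifth probe set stayed between 2.2 and 2.43. B cells against each other type accounted for 9 of the 10 pairs of types, out of 45, in which Ebf1 was called. The last pair was naive CD4 T cells against LT-HSC.

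Pou2af1, the octamer coactivator, was highest in B cells at 13.59 and 14.41, and was well above 5 in T cells too. The 8 T cell arrays ran from 7.43 to 9.61 with a median of 9.0. Erythrocytes had 9.04 and 9.59 and granulocytes 9.4 and 6.28. NK cells, at 5.59 and 4.78, monocytes, at 3.84 and 6.17, and LT-HSC, at 3.75 and 3.29, were lowest. Neighbours differed at 2 steps: B cells stood 4.57 above naive CD8 T cells (SE 0.951, adjusted p = 0.004496 by limma) and granulocytes 2.66 above NK cells (adjusted p = 0.03626 by limma). It has 1 probe set.

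Spib, the Ets factor, had a steeper fall from B cells. Its 1 probe set read 13.09 and 12.78 in B cells. Naive CD4 T cells, at 7.6 and 7.93, and erythrocytes, at 7.62 and 7.53, were next. Granulocytes had 7.49 and 5.25, and naive CD8 T cells 5.31 and 7.58, so each of these types spanned more than 2 log2 units. Activated T cells (4.87 to 5.34), monocytes (5.32 and 4.95), NK cells (4.8 and 4.83) and LT-HSC (3.73 and 4.0) were near or below 5. The gap of 5.17 from B cells to naive CD4 T cells was the only step between neighbours that differed (SE 0.67, adjusted p = 0.0001018 by limma).

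Spib had a profile close to those of Ebf1 and Pou2af1. Pearson's r over the 10 type means was 0.917 for Spib with Ebf1 and 0.898 for Spib with Pou2af1, the highest values among the 28 pairs of members. Ikzf3 with Bach2 followed at 0.776 and Ebf1 with Pou2af1 at 0.75. The 250 bases upstream of the start of Pou2af1 and of Spib are shown because these genes have similar profiles and share, in that window, 7 letters of the octamer element to which the partner factors of Pou2af1 bind. They are read 5′ to 3′ on the strand of the gene, from RefSeq on build GRCm38.p6, and capitals mark TGCAAAT.
Pou2af1, chr9:51213440-51213689, plus strand: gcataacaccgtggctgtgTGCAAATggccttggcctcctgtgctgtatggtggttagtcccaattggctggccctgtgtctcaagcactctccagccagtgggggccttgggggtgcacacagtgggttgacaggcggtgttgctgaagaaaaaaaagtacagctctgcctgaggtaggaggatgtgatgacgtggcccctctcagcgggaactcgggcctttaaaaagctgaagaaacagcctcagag
Spib, chr7:44532072-44532321, minus strand: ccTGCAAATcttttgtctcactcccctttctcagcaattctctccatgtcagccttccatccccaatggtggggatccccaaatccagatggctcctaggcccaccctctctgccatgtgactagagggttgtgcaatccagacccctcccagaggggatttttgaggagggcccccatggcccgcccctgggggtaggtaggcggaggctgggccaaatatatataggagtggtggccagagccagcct

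TGCAAAT was searched on both strands in the 8 upstream windows available for 6 members (Ikzf1 and Ebf1 have 2 windows each). The set of promoter windows used held none for Ikzf2 and Ikzf3, which were not searched. It lay at -231 to -225 in Pou2af1 and at -248 to -242 in Spib, and in no other member window. Of all 32851 mouse windows of the same length, 3.56% held it. The 7 letters were chosen after the sequences had been seen. The full octamer ATGCAAAT, which contains them, was in 0 of the 8 member windows and in 1.6% of all windows. The Ikaros core TGGGAA was in the Bcl11a window and in 1 Ebf1 window, and 21.59% of all windows held it. The palindromic Ebf1 motif and the Bach and AP-1 motif TGAGTCA were in none of the 8, against 0.78% and 4.46% of all windows, and the PU box GAGGAA was in 1 Ebf1 window, against 23.25%. A match is a stretch of letters and not a measured binding site.

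Bach2, the repressor of the plasma cell program, was highest in B cells, and its brightest probe set was higher on lymphoid than on other arrays. B cells had 12.05 and 12.46. The 10 T and NK cell arrays ran from 9.94 to 11.11 with a median of 10.65, so all 12 lymphoid arrays were above all others, of which erythrocyte array 2 was highest. That separation, too, is given without its share over all tested genes. Erythrocytes had 7.73 and 9.57, LT-HSC 7.73 and 6.95, granulocytes 8.56 and 4.59, and monocytes 4.96 and 5.83. The 2 granulocyte arrays were 3.97 apart on this log2 scale. No neighbours in the order of means differed. A second probe set was also highest in B cells, at a mean of 8.47, but did not separate lymphoid from other arrays: the T and NK cell arrays ran from 3.8 to 7.81, and erythrocyte array 2 read 6.46 and monocyte array 1 5.88. The third never exceeded 4.18.

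Bcl11a had its highest level in B cells and its second highest in stem cells. It read 13.48 and 13.4 in B cells and 11.6 and 11.35 in LT-HSC, followed by 10.36 and 9.29 in erythrocytes. Granulocytes (8.43 and 7.98), monocytes (8.62 and 7.88), naive CD4 T cells (8.48 and 8.69) and naive CD8 T cells (7.26 and 8.74) formed a middle group. NK cells, at 4.88 and 3.35, and the 4 activated T cell arrays, at 3.25 to 4.08, were all below 5. Neighbours differed between B cells and LT-HSC (1.97, SE 0.55, adjusted p = 0.01231 by limma), LT-HSC and erythrocytes (1.65, adjusted p = 0.02184) and naive CD8 T cells and NK cells (3.89, adjusted p = 0.000262). Bcl11a was called in 35 of the 45 pairs of types, a number that 2.04% of tested genes reached, and Ikzf3 in 34, which 3.18% reached. The other members were called in 10 (Ebf1) to 27 (Pou2af1) pairs, against a median of 19 over all genes. Of the 7 Bcl11a probe sets, 3 passed the filter, and the other 2 of these read 10.58 and 7.79 on average in B cells and 10.14 and 5.5 in LT-HSC. B cells and LT-HSC did not differ on the first of these 2 (0.445, SE 0.523, adjusted p = 0.5763 by limma). On the second they did (2.29, SE 0.275, adjusted p = 2.054e-05 by limma). In erythrocytes these 2 probe sets were lower, at means of 5.19 and 2.91.

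**Figure D2:**
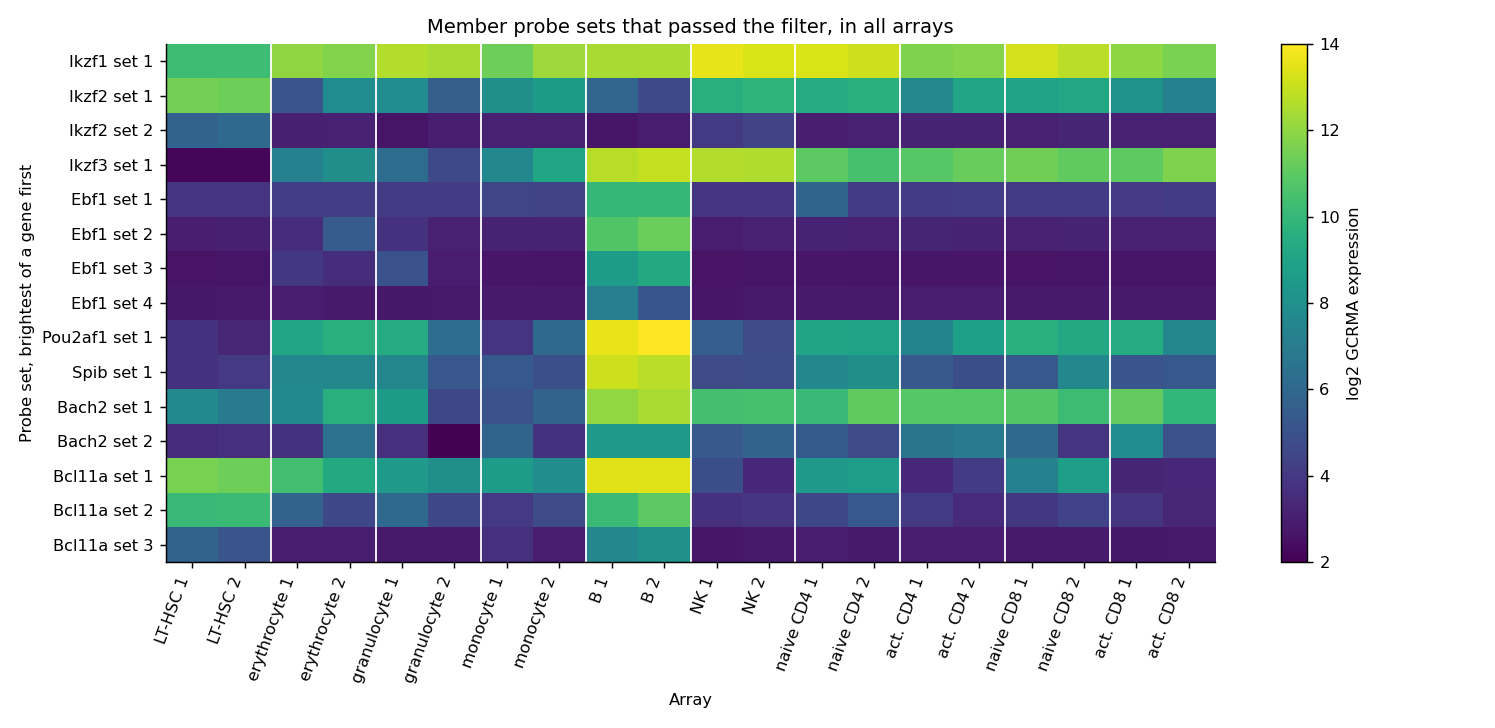
Log2 GCRMA expression (colour) of the 15 member probe sets that passed the filter (rows, brightest of a gene first) on the 20 arrays (columns). All 4 Ebf1 and all 3 Bcl11a probe sets shown have their highest mean in B cells, and both Ikzf2 probe sets have theirs in LT-HSC, at 11.4 and 5.92. The Ebf1 probe sets passed the filter only through B cells, and the second Ikzf2 probe set only through LT-HSC.

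The first question was which members set B cells apart. Against the mean of the other 9 types, 7 of the 8 genes were called, 6 higher and 1 lower. Over all 9810 tested genes 27.4% were called in this comparison, 16.2% higher and 11.2% lower. Ebf1 passed the filter only through its B cell arrays, so the count of members is not read as support. Spib was 7.12 higher (SE 0.499, adjusted p = 2.274e-07 by limma), or 139-fold, and Pou2af1 6.68 higher (SE 0.709, adjusted p = 1.123e-05), or 103-fold. Bcl11a was 6.17 higher (SE 0.41) and Ebf1 5.81 higher (SE 0.291). Ikzf3 was 3.88 higher (SE 0.385) and Bach2 3.27 higher (SE 0.72, adjusted p = 0.003446). In each of these 6 genes both B cell arrays were above all 18 other arrays. The share of all tested genes with such a separation is not given, here or in the comparisons below, so it describes these genes only. Ikzf2 was 3.27 lower (SE 0.616, adjusted p = 0.001214), with one B cell array within the range of the other types. With the mean of its passing probe sets this was -1.98 and still called. Ikzf1 was at 12.45 in B cells and 12.18 in the mean of the others and did not pass (adjusted p = 0.331). The median difference was 4.84 over the members and 0.13 over all tested genes. The Bach2 call was lost without B cell array 2. The same 7 genes were called without granulocyte array 1 and the erythrocyte arrays, where the mean of the other types holds 8.

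Genes that work with or under these factors were read from fixed lists. Of the listed targets of Ebf1 and Pax5, 15 had a probe set and 11 were tested. These 11 were above 5 on both B cell arrays, and 2 to 8 of the 15 were above 5 on each other array, so some passed the filter only through B cells and the count is not read as support. All 11 were higher in B cells, with a median difference of 7.47, where 16.2% of all tested genes were higher. Among them were Cd79b, the signalling chain of the B cell receptor (8.54), Ms4a1, which encodes CD20 (8.39), Cr2, the complement receptor (8.27), and Blk, a Src family kinase (7.73). The 4 that failed the filter, Igll1, Vpreb1, Rag1 and Rag2, belong to the surrogate light chain and recombination steps of precursor B cells, and read 2.31 to 3.55 in the B cell arrays. Pax5 itself failed the filter, at 4.71 and 2.91 in B cells and 1.81 to 1.91 elsewhere, and so was not tested.

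Of 22 other B-lineage and lymphoid factors, 17 were tested. In B cells 11 were higher and 2 lower, against 16.2% and 11.2% of all tested genes. The higher ones included Mef2c (6.58), a MADS box factor, Irf4 (4.34), an interferon regulatory factor, Tcf4 (3.76), an E protein, and Id3 (2.79), an inhibitor of E proteins. The 2 lower ones were Bcl11b (-2.21), the T cell relative of Bcl11a, and Lef1 (-1.27). Spi1, which encodes PU.1, differed by 0.1 and was not called (adjusted p = 0.8335 by limma). Of the 7 genes of the plasma cell program, which Bach2 is known to hold back, 4 were higher in B cells and 0 lower. These were Mzb1 (6.32), Sdc1 (4.92), Jchain (4.39) and Irf4, whereas the plasma cell factors Prdm1 (-0.77, adjusted p = 0.04225) and Xbp1 (0.2, adjusted p = 0.4121) were not called, the first for a difference under 1. Of 16 tested genes for remodelling and corepressor partners of Ikaros proteins, only Chd3 (1.43) was higher and only Ctbp2 (-2.75) lower in B cells. The list median was 0.17 against 0.13 over all genes. The shares of 16.2% and 11.2% stand beside the counts of each list. Some listed genes may have passed the filter only through B cells, so no count is read as support.

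Against naive T cells alone, 6 members were called, 5 higher in B cells and 1 lower, where 16% of all tested genes were called, 8.23% higher and 7.76% lower. This count again holds Ebf1, tested only through its B cell arrays, and is not read as support. Spib was 5.83 higher (SE 0.58, adjusted p = 7.039e-06 by limma), Ebf1 5.48, Bcl11a 5.15, Pou2af1 4.79 and Ikzf3 1.84 (SE 0.448, adjusted p = 0.01052). Ikzf2 was 3.96 lower (SE 0.716, adjusted p = 0.001371), or 2.12 lower with the mean of its probe sets, still called. All B cell arrays lay outside the range of the 4 naive T cell arrays for these genes, a separation given without its share over all tested genes. Bach2 was 1.71 higher on the brightest probe set without passing (SE 0.837, adjusted p = 0.1998), and on its second probe set 3.44 higher (SE 0.921, adjusted p = 0.01824). It was also called, at 1.71, without granulocyte array 1 and the erythrocyte arrays (adjusted p = 0.01461). The Ikzf3 call was lost without either B cell array and without the naive arrays numbered 2.

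LT-HSC, from which the other cells derive, differed from the mean of the other 9 types in all 8 members, 2 of them higher and 6 lower. Of all tested genes 39.6% were called, 18.3% higher and 21.4% lower. Bcl11a was 3.98 higher (SE 0.41, adjusted p = 4.198e-06 by limma), or 15.8-fold, although B cells were higher still. Ikzf2 was 3.5 higher (SE 0.616, adjusted p = 0.0004194), or 11.3-fold, with both LT-HSC arrays above all others. Ikzf3 was 7.95 lower (SE 0.385, adjusted p = 2.129e-09), Pou2af1 4.96 lower and Spib 2.95 lower, with both LT-HSC arrays below all others. LT-HSC levels of these 3 genes were under 5, and with values below 5 set to 5 the differences of Ikzf3 and Spib were -5.15 and -1.85, both still called. Ikzf1 was 2.15 lower (SE 0.21, adjusted p = 2.565e-06), or 4.42-fold. Bach2 was 2.2 lower (SE 0.72, adjusted p = 0.02149) and Ebf1 1.07 lower (SE 0.291, adjusted p = 0.007996). The median was -2.17 over the members and -0.2 over all genes.

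Taken type by type, Ebf1 in LT-HSC was lower than in B cells by 6.19 and than in naive CD4 T cells by 1.15 (adjusted p = 0.03385 by limma), where only 1 array exceeded 5. Against each of the other 7 types its adjusted p was between 0.1627 and 0.9172. The Ebf1 and Bach2 calls were both lost when either LT-HSC array was left out, which left 6 members called. The Bach2 call was also lost without the filter (adjusted p = 0.06724), and the Ebf1 call without naive CD4 array 1, with a floor of 5 and with the mean of its probe sets. Ikzf1 and Ikzf3 were lower in LT-HSC than in each of the 9 other types, in pairs where 36.4% to 52.9% of all tested genes were called. On its brightest probe set, Bcl11a in LT-HSC was lower than in B cells and higher than in each of the other 8. The same 8 members were called without granulocyte array 1 and the erythrocyte arrays.

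Nucleated erythrocytes are the cells in which Bcl11a is known to act on globin genes. There 3 members were called against the mean of the other 9 types, 1 higher and 2 lower, in a comparison where 55% of all tested genes were called, 18.4% higher and 36.6% lower. Bcl11a was 2.15 higher (SE 0.41, adjusted p = 0.0004796 by limma), or 4.44-fold. This rested on the brightest probe set: with the mean of its 3 passing probe sets the difference was 0.289 and was not called. Ikzf2 was 1.95 lower (SE 0.616, adjusted p = 0.01406) and Ikzf3 1.94 lower (SE 0.385, adjusted p = 0.0006464). The Ikzf2 arrays of 5.16 and 7.82 were far apart, and its call was lost without erythrocyte array 1, at -0.622. It was -3.28 without erythrocyte array 2 and -1.18 with the mean of its probe sets. Pou2af1 (1.48 higher, adjusted p = 0.08659) and Spib (1.17 higher, adjusted p = 0.05692) did not pass. Without granulocyte array 1 both were called, at 1.65 and 1.29, as they were after quantile normalization, so the count was then 5. Spib was also called without granulocyte array 2 or either naive CD8 array, and Pou2af1 without monocyte array 2. The granulocyte and B cell marker signal on the erythrocyte arrays stands beside all of these values.

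Of 8 globin and globin regulator genes, 6 were tested, and 4 were higher in erythrocytes and 0 lower. Of all tested genes 18.4% were higher and 36.6% lower. The list holds erythroid genes, and Hbb-y passed the filter only through erythrocytes, so the count is not read as support. Hbb-y, the embryonic beta-like globin, read 9.17 and 8.58 in erythrocytes and 2.91 to 3.21 elsewhere. The other embryonic globins did not pass the filter, and Hbb-bh1 read 4.11 and 3.23 and Hba-x 2.5 and 2.46 in erythrocytes. The erythroid factor Klf1 was 13.52 and 13.33, Sox6 14.35 and 14.48, and Gata1 11.56 and 11.02. Hbb-y is similar in sequence to the other beta-globin genes, so its probe set is uncertain in cells where those are abundant.

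Between the 6 lymphoid types and the 2 myeloid types, 5 members were called, 4 higher in lymphoid cells and 1 lower, where 55.5% of all tested genes were called, 35.1% higher and 20.4% lower. The share of members was near that background. Bach2 was 4.88 higher in lymphoid cells (SE 0.558, adjusted p = 3.647e-06 by limma), or 29.5-fold, and Ikzf3 4.73 higher (SE 0.298, adjusted p = 1.097e-08), or 26.6-fold. In both genes all 12 lymphoid arrays were above all 4 myeloid arrays. Pou2af1 was 2.61 higher (SE 0.549) and Spib 1.3 higher (SE 0.387, adjusted p = 0.00894), but the arrays of the 2 sides overlapped. The Spib call was lost without granulocyte array 2, at 0.737, and with array weights. Bcl11a was 1.37 lower (SE 0.318, adjusted p = 0.00169), and the call was lost with the mean of its probe sets, at -0.159, and with a floor of 5, at -0.723. Ebf1 differed by 0.91 and Ikzf1 by 0.44, under the minimum of 1. Without granulocyte array 1 and the erythrocyte arrays 6 members were called, Ikzf2 being added, and Bach2 was then 5.87 and Ikzf3 5.14 higher.

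The relatives of Bach2 ran the other way along this axis. Of 8 genes for related factors, small Maf partners and heme oxygenase, a Bach target, 5 were lower in lymphoid than in myeloid cells and 0 higher. Of all tested genes 20.4% were lower and 35.1% higher. The list median was -2.6 against 0.36 over all genes. Nfe2, the erythroid and megakaryocytic relative, was 10.1 lower, Mafg 3.75 lower, Bach1 3.45 lower and Nfe2l2 2.63 lower. Mafk (-0.46) and Maff (-0.36) were not called. Among the Ikaros partners, 6 of 16 were higher in lymphoid cells, a share near that of all tested genes, of which 35.1% were higher. They were led by Chd3 (6.19), Hdac2 (3.17), Mta1 (2.76) and Rbbp7 (1.97), and Ctbp2 was 2.91 lower.

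Monocytes and granulocytes differed in 2 members, 1 higher and 1 lower in monocytes, where 23.2% of all tested genes were called, 6.63% higher and 16.6% lower. Ikzf3 was 2.91 higher in monocytes (SE 0.517, adjusted p = 0.001301 by limma), and its call was lost when only these 4 arrays were fitted. Pou2af1 was 2.84 lower (SE 0.951, adjusted p = 0.04733). That call was near the threshold, and granulocyte array 1 read 9.4 against 6.28 for array 2. Without granulocyte array 1 the difference was -1.28, without granulocyte array 2 -4.39 and without monocyte array 1 -1.67. The call was kept under only 10 of 34 alternatives, and was also lost under several that left out an array of another cell type. Spib (7.49 and 5.25) and Bach2 (8.56 and 4.59) showed the same split between the granulocyte arrays, on which the B cell marker levels were 9.89 and 8.16. Without granulocyte array 2 both were called lower in monocytes, at -2.36 and -3.17, which made 4 members. Without granulocyte array 1 and the erythrocyte arrays, Ikzf2 (2.66 higher, adjusted p = 0.01614) and Ikzf3 were called.

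**Figure D3:**
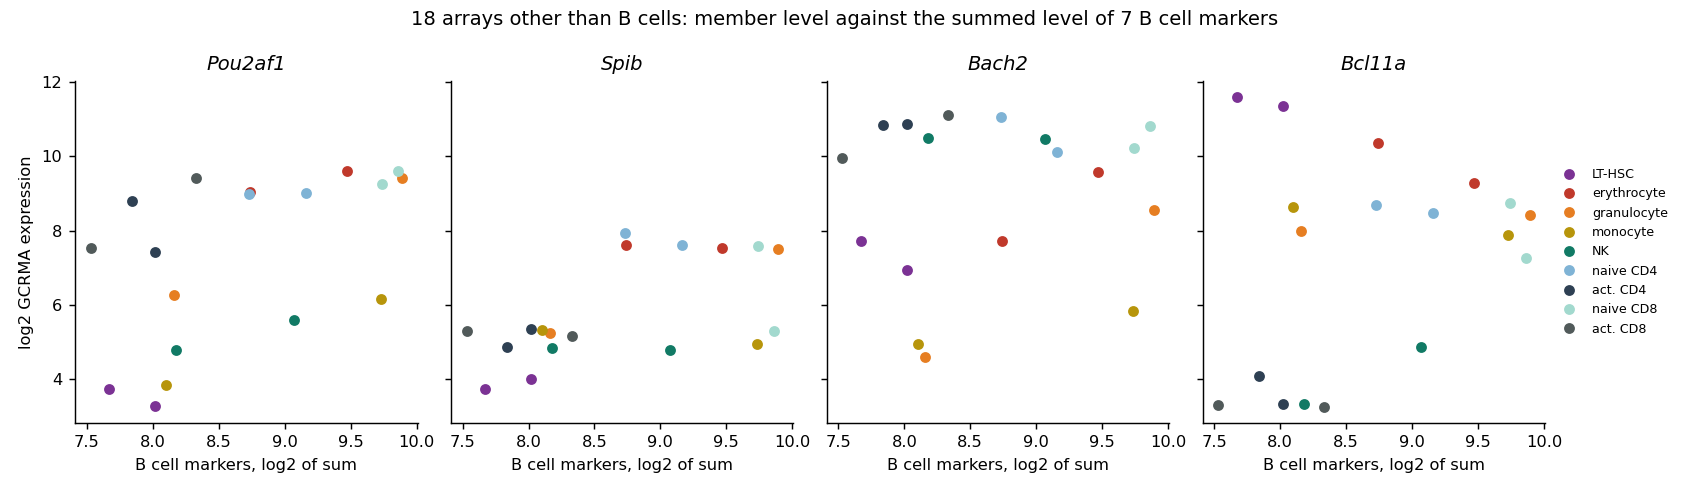
Log2 GCRMA expression of Pou2af1, Spib, Bach2 and Bcl11a (y axis) against the summed level of 7 B cell markers (x axis, log2 of the sum of linear values) on the 18 arrays other than B cells, coloured by cell type. Granulocyte array 1 lies at 9.89 on the x axis and array 2 at 8.16, and Pou2af1, Spib and Bach2 are each higher on array 1.

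Values of the genes and of the whole B cell marker list stand side by side for the other arrays. Of the 7 markers, 4 were above 5 on granulocyte array 1, erythrocyte array 2, monocyte array 2, NK array 1, naive CD4 array 1 and both naive CD8 arrays, where the summed levels were 9.07 to 9.89. Pou2af1 ran from 5.59 to 9.61 on these 7 arrays, Spib from 4.8 to 7.6 and Bach2 from 5.83 to 10.81. On the other 11 arrays 1 to 3 markers were above 5. There Pou2af1 ran from 3.29 to 9.41, Spib from 3.73 to 7.93 and Bach2 from 4.59 to 11.11. Both sets of arrays mix cell types, and the part of admixed B cells in these levels was not tested. The defining marker Cd79a was at 2.46 to 2.68 on all 18. Ebf1 exceeded 5 outside B cells on naive CD4 array 1 in its brightest probe set, and on erythrocyte array 2 and granulocyte array 1 in 1 other probe set each.

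NK cells and naive T cells, the lymphocytes here outside the B lineage that were not activated, differed in 4 members, 1 higher and 3 lower in NK cells. Of all tested genes 17.1% were called, 8.23% higher and 8.89% lower. Bcl11a was 4.18 lower in NK cells (SE 0.477, adjusted p = 3.196e-05 by limma) and Pou2af1 4.03 lower (SE 0.823, adjusted p = 0.003427), or 16.3-fold. With the mean of the Bcl11a probe sets its difference was -1.68, still called, and NK levels of the gene were under 5. Spib was 2.29 lower (SE 0.58, adjusted p = 0.01295). Ikzf3 was 1.61 higher (SE 0.448, adjusted p = 0.02172). The 2 NK arrays lay outside the range of the 4 naive T cell arrays in all 4 genes. How many of all tested genes separated in this way is not given here. The Ikzf3 and Spib calls were lost when either NK array was left out, which left Bcl11a and Pou2af1, and also without the naive arrays numbered 2. The Ikzf3 call was lost too without the filter and without naive CD4 or naive CD8 array 2, and the Spib call with only the types compared. Bach2 read 10.45 and 10.49 in NK cells and 10.1 to 11.05 in naive T cells, within the same range. The SE of this difference was 0.837, and it was not called (adjusted p = 0.9753 by limma).

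Activation of CD4 T cells went with lower levels of 3 members and higher levels of none, where 32.4% of all tested genes were called, 14.5% higher and 17.8% lower. Bcl11a was 8.48 and 8.69 in naive and 3.35 and 4.08 in activated CD4 T cells, a fall by 4.87 (SE 0.55, adjusted p = 3.15e-05 by limma). The activated levels were under 5. The mean of its 3 passing probe sets gave -2.02, still called, while the other 2 on their own were not called, at -1.22 (adjusted p = 0.09468 by limma) and 0.045 (adjusted p = 0.9714), with naive means of 4.96 and 2.89. Ikzf1 fell by 1.44 (SE 0.281, adjusted p = 0.001586), from 13.3 and 13.07 to 11.69 and 11.81. Spib fell by 2.66 (SE 0.67, adjusted p = 0.007842), from 7.6 and 7.93 to 5.34 and 4.87. In these 3 genes both activated arrays were below both naive arrays, a pattern whose share over all tested genes is not given here. The Spib call was lost without activated CD4 array 2. All 3 calls held when the naive arrays numbered 1, or those numbered 2, were left out. The first of these sets holds the naive arrays with Y-linked signal, and all activated arrays have that signal.

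In CD8 T cells 2 members were lower and none higher, where 29.5% of all tested genes were called, 14.1% higher and 15.4% lower. Bcl11a was 7.26 and 8.74 in naive and 3.25 and 3.32 in activated cells and fell by 4.72 (SE 0.55, adjusted p = 4.513e-05 by limma). The difference was -3 with values below 5 set to 5 and -1.79 with the mean of its probe sets, both called, and neither of the other 2 probe sets was called alone (adjusted p = 0.4584 and 0.9975 by limma). Ikzf1 fell by 1.19 (SE 0.281, adjusted p = 0.00588), from 13.18 and 12.77 to 11.98 and 11.59. This Ikzf1 call was lost without activated CD8 array 2, without naive CD8 array 1, without the naive arrays numbered 1 and when only the 2 types were fitted. Spib was 1.22 lower without passing (adjusted p = 0.2014), and its naive arrays were 5.31 and 7.58. It was called, at -2.35, without naive CD8 array 1 (adjusted p = 0.02057).

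The other members did not pass in either lineage, apart from Spib in CD4 T cells. Ikzf3 was 10.97 and 10.53 in naive and 10.9 and 11.2 in activated CD4 T cells. Bach2 was 10.1 and 11.05 against 10.87 and 10.84. Ikzf2 was 1.13 lower in activated CD4 and 1.34 lower in activated CD8 T cells, with adjusted p = 0.3527 and 0.2615 by limma and an SE of 0.827 for each, so changes of this size were not detectable with these arrays. The SE for Bach2 was 0.966 in each lineage. The difference between the CD4 and the CD8 response was called in 0 members, where 0.591% of all genes were called by limma, and 0 members had an unadjusted p under 0.05. For Bcl11a the responses differed by -0.16 (SE 0.778). Ebf1 was called there without naive CD4 array 2, where the remaining array is the one at 5.85.

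**Figure D4:**
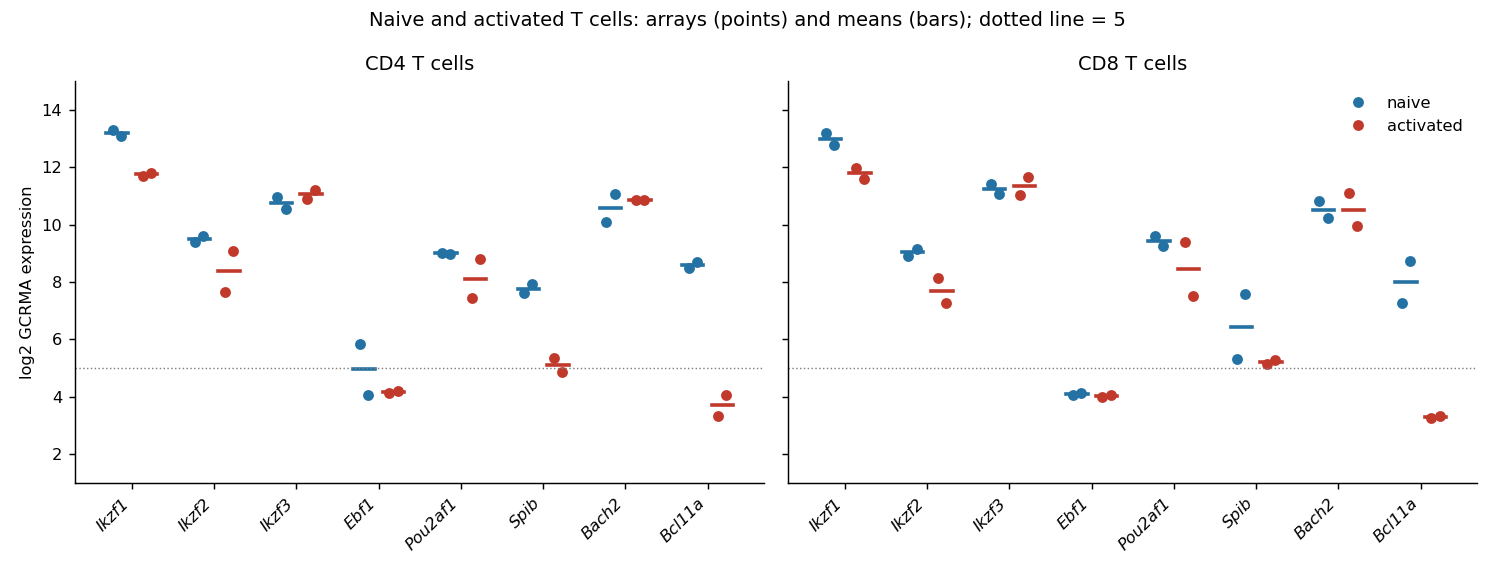
Log2 GCRMA expression (y axis) of the 8 members (x axis) in naive (blue) and activated (red) CD4 and CD8 T cells, with points for the 2 arrays and bars for their mean. Bcl11a drops from between 7.26 and 8.74 to between 3.25 and 4.08, and Ikzf1 is lower in all 4 activated arrays.

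Other factors were read on activation as well. In CD4 T cells 7 of the 17 tested B-lineage and lymphoid factors were lower and 1 was higher, where 17.8% of all tested genes were lower and 14.5% higher. In CD8 T cells 5 were lower and 2 higher, against 15.4% and 14.1% of all genes, with Runx1 at -5.22 and Irf4 at 7.76. The lower ones in CD4 T cells included Mef2c (-4.05), Tcf4 (-3.03), Runx1 (-2.9) and Lef1 (-2.07), and the higher one was Irf4 (7.28), a factor known to be induced by T cell receptor signals. Bcl11b, which maintains T cell identity, was not called (-1.16, adjusted p = 0.4005). Of the 16 tested Ikaros partners 3 were called in CD4 T cells, a smaller share than the 32.4% of all tested genes: Mta3 (-3.26) and Chd3 (-2.64) were lower and Gatad2a (1.8) higher. Ikzf4 rose by 2.3 in CD4 and by 2.6 in CD8 T cells. Markers of regulatory T cells, in which Helios and Eos are known to act, had a summed level of 10.89 and 10.88 in naive and 12.51 and 13.1 in activated CD4 T cells, and their defining member Foxp3 read 3.05 and 4.76 in naive and 3.99 and 8.55 in activated cells. Several of that list, Il2ra and Ctla4 among them, are also activation genes, and their part in the Ikzf2 and Ikzf4 levels was not tested. B cell marker levels were 9.16 and 8.73 in naive and 8.02 and 7.84 in activated CD4 T cells, and T cell markers 13.65 and 14.19 against 12.43 and 12.33, and these stand beside the falls of Bcl11a, Spib and Ikzf1. The plasmacytoid dendritic cell markers, a list that holds Tcf4, had a summed level of 11.85 and 12.35 in naive and 10.13 and 10.46 in activated CD4 T cells, and of 12.33 and 12.7 in naive and 10.82 and 10.82 in activated CD8 T cells, with Siglech at 2.44 and 2.45 in activated CD4 T cells. Their part in the Bcl11a and Spib levels was not tested.

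Naive CD4 and naive CD8 T cells differed in 0 members, where 2.02% of all tested genes were called by limma. Ebf1 alone had an unadjusted p under 0.05 there, with naive CD4 arrays of 5.85 and 4.07 and naive CD8 arrays of 4.06 and 4.14. Spib was 7.6 and 7.93 in CD4 and 5.31 and 7.58 in CD8 T cells, a difference of 1.32 that did not pass (SE 0.67, adjusted p = 0.5488).

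For each member the 3 genes with the most similar profile were taken by Pearson's r over the 10 type means, which share arrays and normalization. For Ebf1 these were H2-DMb2 (0.992), an MHC class II chaperone gene, Cdh17 (0.99) and Myl4 (0.99). For Spib they were Fcrla (0.973), an Fc receptor-like gene of B cells, Akap12 (0.97) and Niban3 (0.969), and for Pou2af1 Mtmr4 (0.945), Niban3 again (0.934) and Ifi30 (0.89). Bcl11a was nearest to N4bp2 (0.942), Zbtb18 (0.888) and Wdfy4 (0.871), and Bach2 to Snx25 (0.96), Grpel2 (0.957) and Taf3 (0.956). Among the Ikaros genes, Ikzf1 was nearest to Trip12 (0.98), Lrch3 (0.959) and Fbxo28 (0.948), Ikzf2 to Rora (0.902), Hectd2 (0.901) and Ctla2a (0.898), and Ikzf3 to Rasgrp1 (0.94), Rmi1 (0.939) and Gpatch1 (0.938). All 3 genes nearest to Ikzf1 shared its extremes, highest in NK cells and lowest in LT-HSC, and all 3 nearest to Ikzf2 were highest in LT-HSC.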

How the data were processed

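Sorted cells were lysed, and RNA was amplified in repeated rounds of transcription before labelling, per the labels' protocols, so signal near the 3′ end of transcripts is favoured. The authors deposited 1 table of log2 expression values for 45101 probe sets (Affymetrix Mouse 430 2.0) made with GCRMA, per the submitters' processing notes. GCRMA subtracts background by sequence, and levels under 5 were treated as low. Gene names came from GEO's annotation of the array: 34945 probe sets had 1 gene symbol, 932 had several and 9160 had none here. No gene level was set against that of another gene.

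The deposited log2 values were fitted as they stand with limma 3.58.1 in R 4.3.3, with 1 mean per cell type over all 20 arrays and 10 residual degrees of freedom. After the filter, 18726 probe sets were tested in 11 contrasts and 45 pairs of types. Percentages of all tested genes use the brightest probe set of 9810 genes. The fit was tested on simulated data. No array has a scan date or slide here, and the number of arrays limits the precision.

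The members, gene lists, motifs and tests were chosen with earlier results of these data known. Named genes are all members, up to 4 called and 2 uncalled genes of a list per contrast, and the 3 most similar genes. Alternatives covered the filter, scaling, floor, choice of probe sets, weights, block and each array left out. Protein sequences were not used here.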

Additional observations from a re-analysis of the deposited data

How the results depend on the processing

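Each comparison was refitted under up to 34 alternatives. Of 40 called differences, 26 kept their direction and call throughout, and none changed direction. With 1 array left out the number of called members ran from 6 to 7 for B cells against the other types, 6 to 8 for LT-HSC, 2 to 5 for erythrocytes, 4 to 6 for lymphoid against myeloid, 5 to 7 for B against naive T cells, 2 to 4 for NK cells, 2 to 4 for CD4 activation, 1 to 2 for CD8 activation, 0 to 1 for the CD4 and CD8 difference, 0 to 1 for naive CD4 against CD8, and 1 to 4 for monocytes against granulocytes. Quantile normalization gave 5 members in erythrocytes. Fitting only the types compared gave 1 for CD8 activation and 0 for monocytes against granulocytes. That last comparison gave 1 without the filter, with a floor of 5, with array weights, under the replicate block, and without the naive arrays numbered 1 or 2. Leaving out the naive arrays numbered 2 gave 1 for the CD4 and CD8 difference and 1 for naive CD4 against CD8, in both cases Ebf1. The replicate block changed no other member count. The arrays share only numbers: over the 45 pairs of types the correlation of same-numbered arrays' deviations ran from -0.239 to 0.174, and 10 of 20 arrays correlated best with their own number. Bach2 in monocytes against granulocytes, -1.18 and not called, ran from -3.165 without granulocyte array 2 to 0.805 without granulocyte array 1, and became 0.39 with the mean of its probe sets. It was also 0.805 with the erythrocyte arrays left out as well, an alternative chosen after seeing the data.

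Counts over all genes moved by more than 1.5 times in few cases. They were 1776 against 2685 for B cells without B array 1 and 1047 against 1679 for NK cells without NK array 1. The CD4 and CD8 difference gave 107 with the floor and 19 with only its types, against 58. Naive CD4 against CD8 gave 0 with only its types, 124 and 350 without naive CD4 array 1 or 2, 102 without naive CD8 array 1 and 89 without both arrays numbered 1, against 198. Monocytes against granulocytes gave 155 with only its types and 1278 with array weights, against 2275. Quantile normalization moved the median of all genes from 0.13 to -0.06 for B cells, from -0.54 to -0.406 for erythrocytes and from 0.36 to 0.225 for lymphoid cells. Signal over background limits Ebf1 and Spib, many of whose levels outside B cells are near or under 5, with medians of 4.08 and 5.3. Pou2af1 and Bcl11a were above 5 on 14 and 12 of those 18 arrays. It limits Pou2af1 in LT-HSC, NK cells and monocytes, Bcl11a in NK cells and activated T cells, and Ikzf3 in LT-HSC.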
